A study of Homo sapiens with 4 samples.

Results

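The molecular chaperones described here are the heat shock protein and J-protein families, the cytosolic chaperonin and the BAG co-chaperones, 85 genes of the 28058 in the count table. They were chosen by symbol alone, as the HSPA, HSPB, HSP90, HSPD1, HSPE1 and HSPH1 genes, the DNAJA, DNAJB and DNAJC genes, CCT2 to CCT8 with TCP1, and BAG1 to BAG6. The rule uses no measured value, though earlier results of these data were known when it was set. The symbol rule takes 7 of the chaperonin's subunits and leaves out CCT6A. By known site of action, 56 act in the cytosol or nucleus, 13 in the endoplasmic reticulum (ER), 8 in mitochondria and 8 elsewhere or at no settled place. Of the 85 genes, 9 were listed at 0 in every library, 15 were below 1 CPM (a count scaled by its library total) in every library, the 9 included, and 62 reached 10 CPM in all libraries. The filter on low counts left 69 to be tested between the groups.

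Poly(A) RNA was sequenced from cells labelled SH-SY5Y, a single human neuroblastoma line, in 2 libraries after shock wave treatment (SWT) and 2 untreated control libraries. For SWT, the protocol has flasks immersed in a water bath at 37 °C, 7 cm from the applicator, and 300 pressure impulses of 0.08 mJ/mm2 given at 3 Hz. RNA was taken 6 h later. The design text of the series speaks of exosomes in place of direct treatment, and which was done is not settled by the sources used here. Nothing in the labels ties the replicates to separate cultures, so the p-values below reflect only how far these samples differ, and that difference may be technical. The libraries held 10043697 and 11686808 counts after SWT, against 11647603 and 9888263 in controls, with 15715 to 15988 genes counted at least once. Of 15 noradrenergic neuroblastoma markers, 7 were listed at 0 in all libraries, the enzymes TH and DBH among them, while 11 of 12 mesenchymal markers reached 10 CPM in every library, so part of the noradrenergic program usual for the labelled line was not detected. Leukocyte markers were below 1 CPM in 7 of 8 and endothelial markers in 5 of 8. Summed counts of 25 heart muscle genes were 456 and 154 in SWT libraries and 118 and 3906 in control libraries, so control replicate 2 stood apart.

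Chaperones bind unfolded or partly folded proteins and hold, refold or hand them on. HSP70 proteins (HSPA) do this in cycles of ATP, in which J-proteins (DNAJ) deliver the client and start hydrolysis, and nucleotide exchange factors such as the BAG proteins and HSPH1 release it. HSP90 completes the folding of kinases and receptors, the chaperonins enclose a client in a chamber, and small HSPs (HSPB) hold clients without ATP. After heat or other protein damage, heat shock factor 1 (HSF1) binds heat shock elements, inverted repeats of GAA, and induces HSPA1A, HSPA6, DNAJB1, HSPH1 and HSP90AA1. In the ER, unfolded protein activates ATF6, which acts through the ER stress element of HSPA5 and HSP90B1.

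These elements were looked for because the heat shock and ER stress factors act through them. A match is not a full list of the known targets. RefSeq windows (GRCh38.p14, 250 bases before to 50 after a transcript start) existed for 75 of the 85 genes. A heat shock element of 3 units, searched as GAANNTTCNNGAA and TTCNNGAANNTTC on both strands with overlaps allowed, lay in the windows of 7 of the 75 genes (9.33%), against 0.49% of all 35116 windows. The 7 were HSPA6, HSPA8, HSP90AA1, HSP90AB1, HSPD1, DNAJB6 and DNAJA1. The shorter 2-unit form, GAANNTTC or TTCNNGAA, lay in 26 of the 75 (34.7%) and in 13.5% of all windows, and it is contained in the longer one. Of the HSF1-induced genes named above, only HSPA6 and HSP90AA1 had the 3-unit form. HSPA1A and DNAJB1 had only the 2-unit form, and HSPH1 was found with neither. The ER stress element, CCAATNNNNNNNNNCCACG on either strand, lay in HSPA5 and HSP90B1 (2.67% of the 75 genes) and in 0.0769% of all windows. A gene can have several windows, so per gene symbol the shares over all genes were 0.608%, 16.2% and 0.0916% in the same order. Stretches around these matches follow, with the matched bases in capitals, for the members whose levels are given below; in HSPA8 and HSP90B1 only the outer of 2 matches is shown, and the match of DNAJA1 lies after the start.
HSPA6, chr1:161524451-161524493, plus strand: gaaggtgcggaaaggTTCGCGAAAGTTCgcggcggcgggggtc
HSPA8, chr11:123062346-123062374, minus strand: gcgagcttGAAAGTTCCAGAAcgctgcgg
HSP90AA1, chr14:102087112-102087140, minus strand: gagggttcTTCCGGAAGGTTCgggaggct
HSP90AB1, chr6:44247763-44247858, plus strand: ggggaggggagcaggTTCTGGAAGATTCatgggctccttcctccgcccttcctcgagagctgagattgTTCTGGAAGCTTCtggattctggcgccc
HSPD1, chr2:197500062-197500090, minus strand: gcattTTCTGGAAAGTTCTGGAAccgagc
DNAJB6, chr7:157336858-157336900, plus strand: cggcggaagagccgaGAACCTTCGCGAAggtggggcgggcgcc
HSPA5, chr9:125241376-125241424, minus strand: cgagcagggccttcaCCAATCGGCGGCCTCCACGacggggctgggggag
HSP90B1, chr12:103930211-103930239, plus strand: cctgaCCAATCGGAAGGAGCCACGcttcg
The HSPD1 stretch holds 2 overlapping matches, and HSP90AB1 holds 2 that do not overlap. The HSPD1 stretch also lies within the annotated span of HSPE1. For HSPA8, HSP90AA1, HSPD1 and HSP90B1 the span of the matches with their flanks overlaps annotated exons.

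In both groups the chaperone RNA was dominated by 3 cytosolic genes, HSPA8, HSP90AA1 and HSP90AB1. They summed to 11084 and 10899 CPM in SWT libraries and to 10334 and 11108 CPM in control libraries. All 85 genes together made up 2.53% and 2.5% of counts in SWT libraries and 2.41% and 2.54% in control libraries, so the groups overlapped and control replicate 1 was lowest. In bulk RNA, fewer cells making a transcript and less RNA per cell cannot be told apart. Per kilobase of the longest annotated transcript, the mean level over the 4 libraries was highest for HSPA8, the constitutive HSC70, at 1717 CPM per kb. HSP90AB1, the constitutive HSP90 beta, followed at 1224, HSP90AA1, the inducible alpha form, at 955, the mitochondrial chaperonin HSPD1 at 695 and the chaperonin subunit CCT3 at 523 CPM per kb. The lowest tested member was HSPA2, the HSP70 of spermatocytes, at 0.306 CPM per kb. The choice of transcript matters for such levels: with the exon union as length, HSP90AB1 (1098) stood above HSPA8 (872 CPM per kb), and 29 of 69 tested genes were over 1.5 times lower than with the longest transcript. With the principal transcript, 5 of 69 were over 1.5 times higher, among them BAG1 at 44.0 against 12.1 and DNAJB6 at 92.7 against 18.7 CPM per kb.

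**Figure D1:**
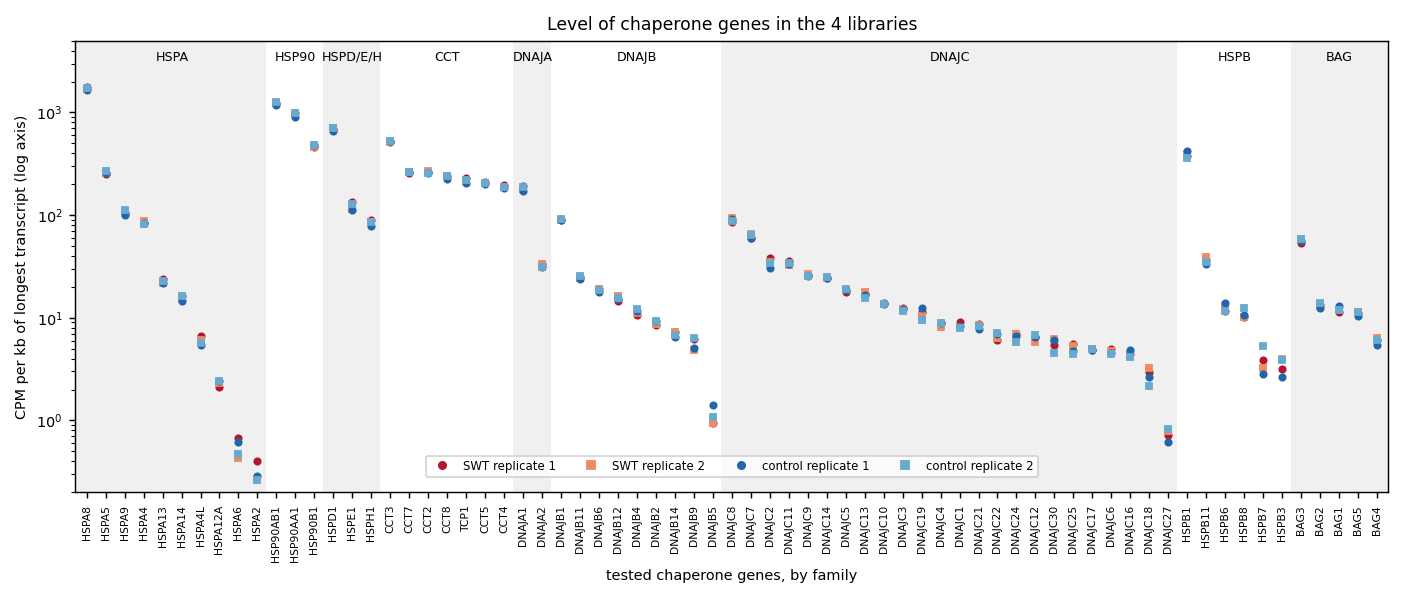
Level of the 69 tested chaperone genes in each library, in CPM per kb of the longest annotated transcript on a log axis, grouped by family and ordered by mean level within it. Red and orange points are SWT replicates 1 and 2, blue points control replicates 1 and 2; HSPA8 leads at a mean of 1717 and HSPA2 is lowest at 0.306 CPM per kb, and the 4 points of most genes lie on top of each other.

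The inducible HSP70 genes had few or no counts in this table, in SWT and control libraries alike. HSPA6, the strictly stress-inducible HSP70, had 16 and 12 counts in SWT libraries against 17 and 11 in control libraries. The 2 groups overlapped, and the log2 fold change was -0.01 (95% interval -0.85 to 0.83). At this depth a change within those limits is not excluded. The interval is not adjusted for the number of genes, so it is no limit of detection for the test. Of the 50-base words of HSPA6, 45.5% also occur in HSPA7, its pseudogene-like copy, which had 1 and 0 counts in SWT libraries and 0 and 1 in control libraries. HSPA1B, an inducible HSP70 of the major histocompatibility region, had 7 and 8 counts in SWT libraries against 4 and 7 in control libraries, too few to be tested. HSPA1A, its near-identical neighbour, and HSPA1L, the testis-enriched HSP70 beside it, were listed at 0 in all libraries.

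For HSPA1A, HSPA1L, BAG6 and DNAJA3 the 0 is shared with their neighbours along the chromosome. On chromosome 6 (GRCh38, GENCODE 29), from BAG6 to HSPA1B at 31639028 to 31830255, 22 of 25 counted coding genes (88.0%) were listed at 0 in all libraries and 24 had fewer than 10 counts in all. Of all 19141 counted coding genes, 24.0% were at 0. The stretch includes genes that most cells use: VARS (a tRNA synthetase), LSM2 (an mRNA decay and splicing factor) and CLIC1 were listed at 0, and CSNK2B, the regulatory subunit of casein kinase 2, had 1 count in all. The 5 coding genes on each side of it also had at most 2 counts. On chromosome 16, from PAM16 to HMOX2 at 4331549 to 4510347, 7 of 7 coding genes were at 0, DNAJA3 among them, while TRAP1, the mitochondrial HSP90 gene of the same chromosome arm, had 1793 and 2262 counts in SWT libraries and 2281 and 1922 in control libraries. DNAJA3 (Tid1) is a mitochondrial J-protein and BAG6 a quality-control factor for membrane proteins, and both are widely expressed in human tissues. Of HSPA1A, 72.6% of 50-base words also occur in HSPA1B, and of HSPA1B, 71.4% occur in HSPA1A. For HSPA1B, 10 of 10 neighbours were at 0. Why the stretches stand at 0 was not tested, and a listed 0 is not read here as absence of the transcript. Nor are the few counts of HSPA1B, inside the chromosome 6 stretch, read as a low level of its RNA. The limits of both stretches were drawn after the zeros were seen. DNAJC28, also at 0, had 1 of 10 neighbours at 0.

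**Figure D2:**
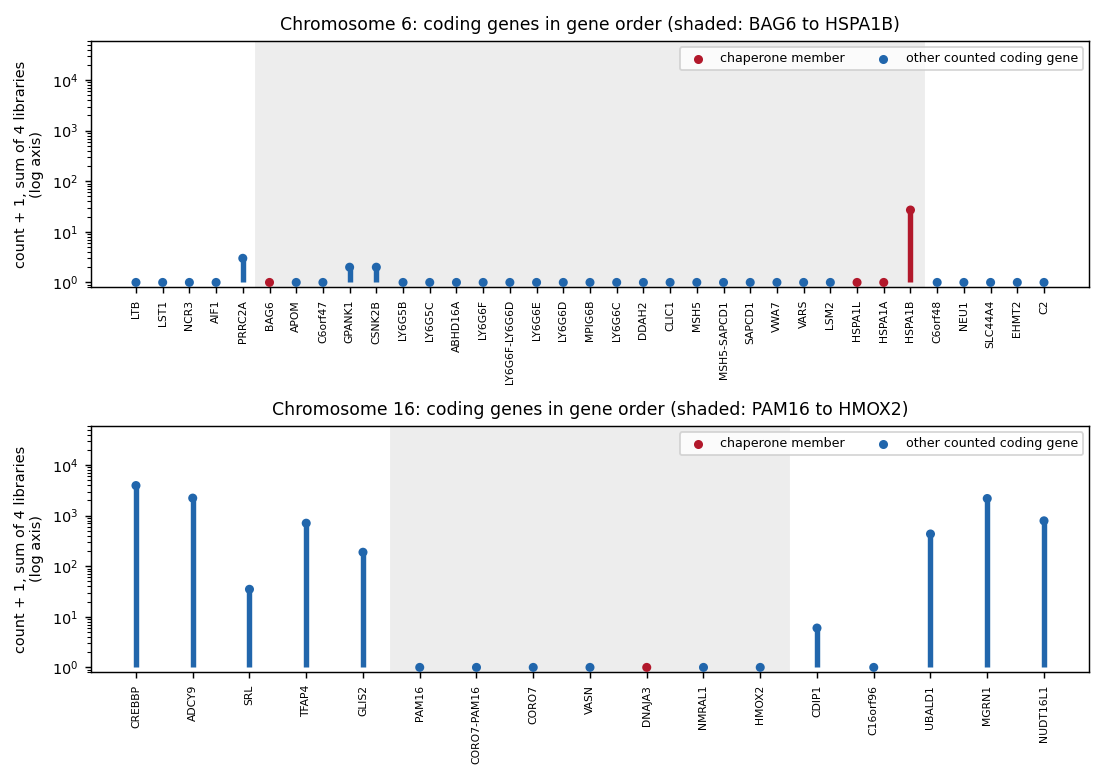
Sum of counts over the 4 libraries, plus 1 on a log axis, of coding genes in gene order along chromosome 6 (top) and chromosome 16 (bottom), with chaperone members in red and other genes in blue; no distances are drawn to scale. The shaded stretches run from BAG6 to HSPA1B, where HSPA1B alone passes 10 with 26 counts, and from PAM16 to HMOX2, where 7 of 7 genes are at 0.

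No chaperone gene passed the test between SWT and control. In edgeR's quasi-likelihood test, with p-values adjusted by Benjamini and Hochberg's method over 12399 genes, 0 of 69 tested members were called higher and 0 lower, and the shares called over all genes were 0% and 0%. The smallest adjusted p among members was 0.838. At an unadjusted p under 0.05, 3 members stood higher and 0 lower, where 2.81% of all genes stood higher and 2.96% lower. By the same 0.05 limit without adjustment, DESeq2 gave 0 members (0.654% of all its genes), limma-voom 3 (4.35% of members, 5.81% of genes) and limma, run on the deposited log2 table, gave 5 (6.58% of members, 4.94% of genes). None of these tools called a member after adjustment. Both SWT libraries lay above both controls in 18 tested members and below both in 11; over all genes these shares were 17.3% and 18%. Log2 fold changes were above 0 in 42 of 69 members (60.9%, against 49.7% of all genes), with a median of 0.03 for members and -0.0008 for all genes, and ran from -0.40 for DNAJB5 to 0.36 for DNAJC18. Control replicate 1 was the lowest library in 29 of 69 members (42.0%, against 28.6% of all genes), and without it the median of the members was -0.01. The 95% intervals are not adjusted for the number of genes, so they are no limit of detection for the test. They lay within 1.189-fold either way (0.25 on the log2 scale) in 39 members. In 61 members they lay within 1.414-fold and in 68 within 2-fold, the exception being HSPA2. Over all genes tested, 41.8%, 77.6% and 93.3% had intervals within these bounds.

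**Figure D3:**
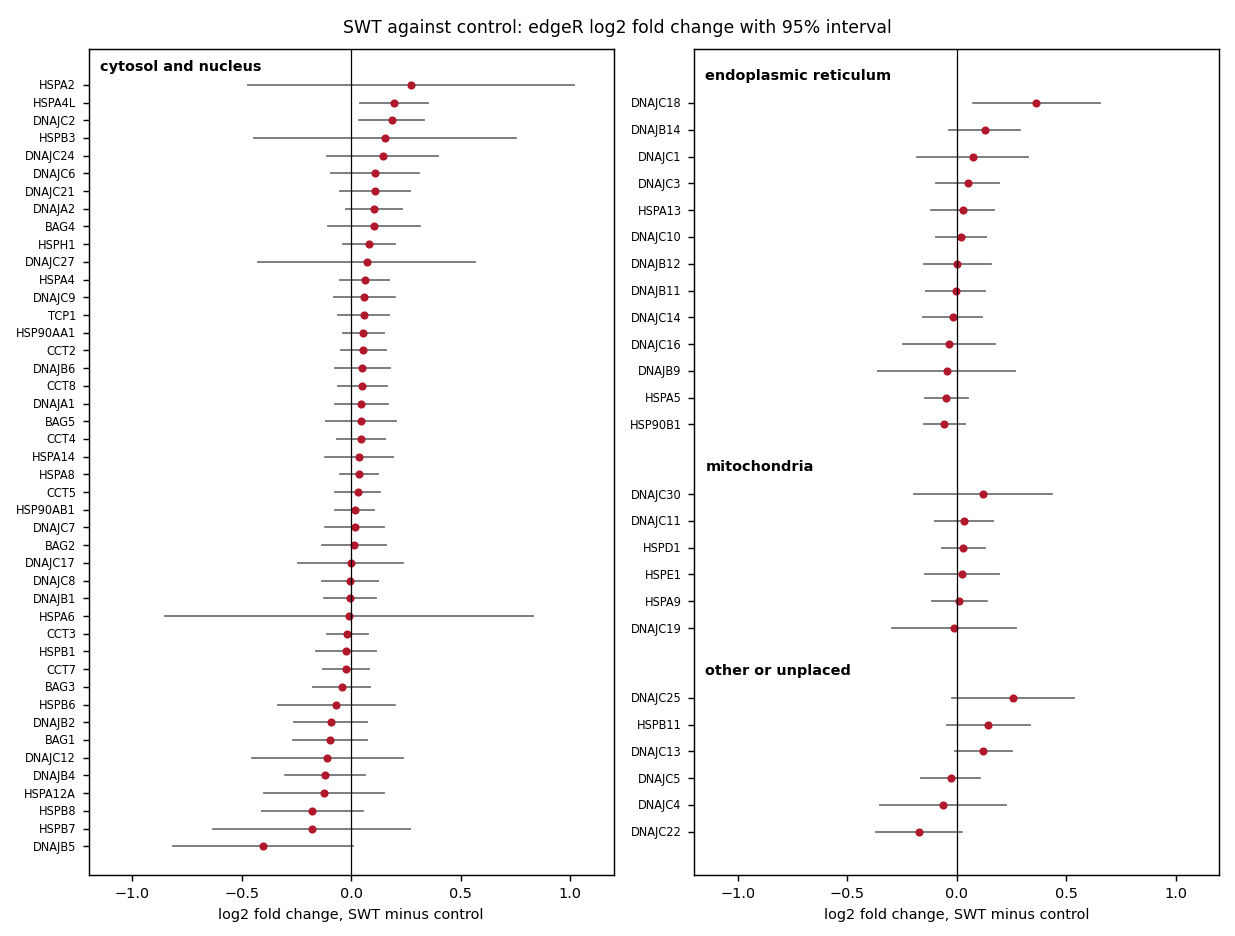
Log2 fold change, SWT minus control, of the 69 tested chaperone genes by compartment; points are edgeR estimates and bars their 95% intervals. The bars of HSPA4L, DNAJC2 and DNAJC18 alone leave out 0, and none of the 3 passed after adjustment (adjusted p 0.838 each).

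The cytosolic stress chaperones described next had coefficients of variation over the 4 libraries between 0.742% (DNAJB1) and 7.18% (HSPB1). HSPA8 had 4347 and 4216 CPM in SWT libraries against 4044 and 4312 CPM in control libraries, and its log2 fold change was 0.04 ± 0.04 (SE). HSP90AA1 had 3451 and 3384 CPM in SWT libraries against 3144 and 3431 CPM in control libraries (log2 fold change 0.06 ± 0.04). In both genes one control lay among the SWT values and control replicate 1 lay below them. HSP90AB1 had 3285 and 3298 CPM in SWT libraries, inside the 3146 and 3365 CPM of control libraries. HSPH1, the HSP110 exchange factor, had 460.5 and 443 CPM in SWT libraries against 409 and 445 CPM in control libraries, and DNAJA1, a J-protein partner of HSP70, had 455 and 430.4 CPM in SWT libraries against 409 and 449 CPM in control libraries. Again only control replicate 1 stood below the SWT libraries. DNAJB1, the classic HSP40 and an HSF1 target, was the steadiest of them, with 203 and 202 CPM in SWT libraries and 202 and 205 CPM in control libraries (log2 fold change -0.01, 95% interval -0.13 to 0.11). BAG3, the autophagy co-chaperone and another HSF1 target, had 138 and 148 CPM in SWT libraries against 145 and 151 CPM in control libraries, and the groups overlapped. HSPB1 (HSP27) had 544 and 571 CPM in SWT libraries, between the 614 and 519 CPM of control libraries. DNAJB6, which holds back protein aggregation, had 152 and 151 CPM in SWT libraries against 143 and 150.5 CPM in control libraries. Of the 7 genes with a 3-unit heat shock element in the window searched, 6 had log2 fold changes from 0.02 (HSP90AB1) to 0.06 (HSP90AA1). HSPA6 stood at -0.01, and 0 of the 7 were called. The 7 leave out HSF1-induced genes such as DNAJB1 and HSPH1, given above.

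**Figure D4:**
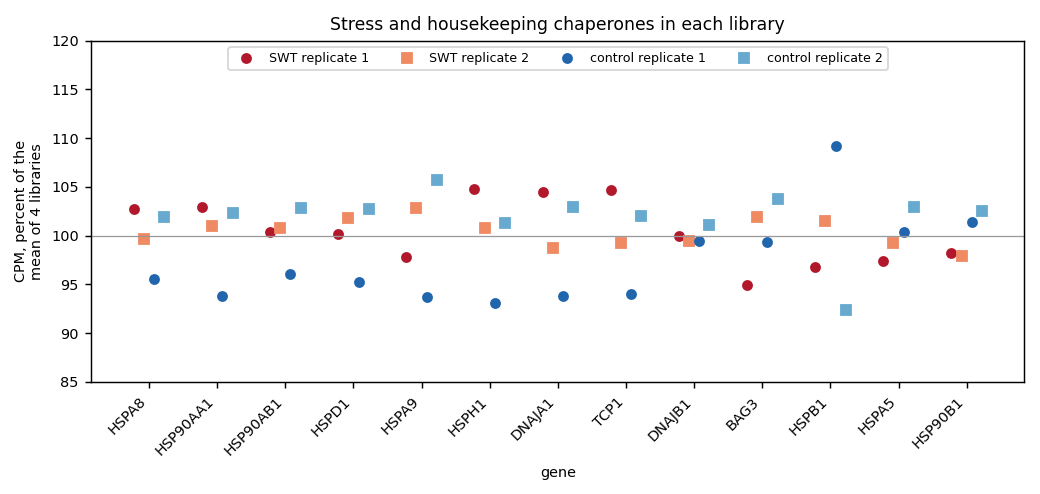
CPM of 13 stress and housekeeping chaperones in each library, as percent of the gene's mean over the 4 libraries (axis from 85 to 120%). SWT replicates are red and orange and controls blue; control replicate 1 is the lowest point for the cytosolic genes HSPA8, HSP90AA1, HSP90AB1, HSPH1, DNAJA1, TCP1 and, by a small margin, DNAJB1, and for mitochondrial HSPD1 and HSPA9, and both SWT points of HSPA5 and HSP90B1 lie below both controls.

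The balance of the cytosolic HSP90 pair was near even in raw counts, without correction for length. HSP90AA1 made up 51.2% and 50.6% of the pair's counts in SWT libraries and 50.0% and 50.5% in control libraries. Both SWT shares lay above both control shares. The exact Clopper-Pearson intervals were 50.9 to 51.6% and 50.3 to 51.0% in SWT libraries and 49.6 to 50.4% and 50.1 to 50.9% in control libraries, and they cover counting error only. Those of SWT replicate 1 and control replicate 1 did not overlap, while SWT replicate 2 overlapped with both controls. Processed copies such as HSP90AA2P and HSP90AB3P share 12.6% and 15.6% of the 50-base words of these genes.

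The lowest p-values did not belong to the abundant stress chaperones. HSPA4L, an HSP110-type exchange factor, had 71.5 and 65.1 CPM in SWT libraries against 58.2 and 61.0 CPM in control libraries, without overlap (log2 fold change 0.20 ± 0.07, edgeR adjusted p 0.838). DNAJC2, a J-protein that works at the ribosome, had 115 and 107 CPM in SWT libraries against 92.0 and 103 CPM in control libraries (log2 fold change 0.18 ± 0.07, edgeR adjusted p 0.838). Leaving out control replicate 2 brought DNAJC2 past the threshold (log2 fold change 0.27, edgeR adjusted p 0.0192), in a fit that called 1.6% of all genes. DNAJC18, a J-protein of the ER membrane, had 15.1 and 16.5 CPM in SWT libraries against 13.4 and 11.01 CPM in control libraries (log2 fold change 0.36 ± 0.14). None of these 3 groups of values overlapped, yet in each of the 3 the gap between groups was smaller than the spread within one of them.

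Next by p among members with higher values after SWT were DNAJC13, the endosomal J-protein RME-8, with 133 and 137 CPM in SWT libraries against 128 and 120.2 CPM in control libraries, and DNAJC25, with 14.3 and 13.8 CPM in SWT libraries against 12.1 and 11.3 CPM in control libraries. DNAJA2, a cytosolic J-protein of the same class as DNAJA1, had 104.8 and 104.3 CPM in SWT libraries against 97.5 and 97.0 CPM in control libraries. Its replicates differed by less than 1 CPM within each group, and its log2 fold change was 0.10 ± 0.06 (edgeR adjusted p 0.870). On the lower side, DNAJB5 had 4.96 and 4.97 CPM in SWT libraries against 7.40 and 5.66 CPM in control libraries (log2 fold change -0.40 ± 0.19, edgeR adjusted p 0.843). DNAJC22 had 26.6 and 28.3 CPM in SWT libraries against 30.8 and 31.2 CPM in control libraries. HSPB8, the small HSP that works with BAG3, had 22.0 and 22.1 CPM in SWT libraries against 23.1 and 27.1 CPM in control libraries, and DNAJB4 had 32.0 and 33.1 CPM in SWT libraries against 34.6 and 36.3 CPM in control libraries. In these 4 both SWT libraries lay below both controls, and none passed the test. BAG1, an exchange factor of HSP70, had 42.7 and 45.5 CPM in SWT libraries against 49.2 and 45.2 CPM in control libraries, with overlap.

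Among J-proteins of the DNAJC class, 10 of 24 tested lay above both controls in both SWT libraries and 2 lay below, where 17.3% and 18% of all genes did so; the median log2 fold change was 0.04 and 0 passed. No test of a family as a whole was made. The class is a family by name more than by function, with members at ribosomes, endosomes, vesicles, the spliceosome and the mitochondrial import motor. In the DNAJB class 2 of 9 tested lay above and 3 below (median -0.01), in the HSPA family 2 of 10 above and 2 below (median 0.03), and in the HSPB family 1 of 6 above and 1 below (median -0.05). The 5 tested BAG genes all overlapped between groups.

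The cytosolic chaperonin, the ring that folds actin and tubulin, varied little between libraries. Its 7 measured subunits had log2 fold changes between -0.02 and 0.06, and each interval lay within 0.25 of 0 on the log2 scale. CCT3 had 1119 and 1119 CPM in SWT libraries against 1128 and 1136 CPM in control libraries, a log2 fold change of -0.02 with a 95% interval from -0.11 to 0.08. CCT2 had 579.5 and 585 CPM in SWT libraries against 559 and 561 CPM in control libraries, and CCT8 had 486 and 483.4 CPM in SWT libraries against 453 and 483.3 CPM in control libraries. In both genes the SWT libraries lay above the controls, with log2 fold changes of 0.06 and 0.05, and neither passed. For CCT8, SWT replicate 2 was all but level with control replicate 2. CCT7 had 521 and 535.8 CPM in SWT libraries against 535.9 and 539 CPM in control libraries, just below. TCP1 had 569 and 539 CPM in SWT libraries against 511 and 554 CPM in control libraries, CCT5 had 768 and 757 CPM in SWT libraries against 733 and 759.6 CPM in control libraries, and CCT4 had 496 and 477 CPM in SWT libraries against 465 and 477 CPM in control libraries. These 3 overlapped between groups. The subunits occupy the ring in equal number, yet their RNA was not level per length. CCT3 stood at 523 CPM per kb and the other 6 between 190.0 (CCT4) and 262 (CCT7) CPM per kb, a ratio of highest to lowest of 2.76 with the longest or the principal transcript and 2.54 with the exon union. Of CCT5, 49.8% of 50-base words also occur in another annotated gene, and 30.1% of its exon bases lie under exons of the other strand.

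In the ER, HSPA5 (BiP) and HSP90B1 (GRP94), the lumenal HSP70 and HSP90, lay slightly below the controls in both SWT libraries. HSPA5 had 987 and 1005 CPM in SWT libraries against 1017 and 1043 CPM in control libraries (log2 fold change -0.05 ± 0.05, edgeR adjusted p 0.928). HSP90B1 had 1402 and 1397 CPM in SWT libraries against 1447 and 1464 CPM in control libraries (log2 fold change -0.06 ± 0.04, edgeR adjusted p 0.910). Neither difference passed, and their intervals reached no lower than -0.15. The 13 ER members summed to 3205 and 3207 CPM in SWT libraries against 3255 and 3309 CPM in control libraries, a sum that these 2 genes dominate. Of BiP's J-protein partners, DNAJB11 (ERdj3) had 102 and 99.1 CPM in SWT libraries against 97.9 and 104 CPM in control libraries. DNAJB9 (ERdj4), a target of the unfolded protein response, had 16.8 and 13.1 CPM in SWT libraries against 13.7 and 17.2 CPM in control libraries, and its replicates differed more than the groups. DNAJC3 (p58IPK) had 69.5 and 67.8 CPM in SWT libraries against 67.7 and 64.8 CPM in control libraries, just above. DNAJC10, the disulfide reductase ERdj5, had 278 and 277 CPM in SWT libraries against 272 and 275 CPM in control libraries (log2 fold change 0.02). Of the 13 tested ER members, 7 lay above 0 and 6 below, with a median of 0.003.

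In mitochondria, HSPD1 (HSP60) had 1709 and 1736 CPM in SWT libraries, between the 1624 and 1752 CPM of control libraries. HSPA9 (mortalin), the matrix HSP70, had 493 and 519 CPM in SWT libraries, also between the 472 and 533 CPM of control libraries. HSPE1 (HSP10), the lid of the HSPD1 chamber, had 126 and 108 CPM in SWT libraries against 107 and 123 CPM in control libraries. All 3 overlapped between groups. HSPE1 counts were 6.88% and 5.85% of the counts of HSPD1 and HSPE1 together in SWT libraries and 6.18% and 6.57% in control libraries, so the 2 SWT replicates lay on either side of both controls. The 2 genes lie head to head and their annotated exons overlap on opposite strands, by 6.62% of HSPD1 and 14.2% of HSPE1 exon bases; the strand setting of the counting was not given in the sources used here, so reads of the overlap cannot be assigned. Read-through genes of HSPE1, HSPB2 and DNAJC25 were listed at 0. DNAJC15, an import J-protein, had at most 4 counts in a library, while DNAJC19, its counterpart in the import motor, had 18.6 and 17.2 CPM in SWT libraries and 20.3 and 15.6 CPM in control libraries.

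HSPB7, a small HSP of heart muscle, had the highest coefficient of variation over the 4 libraries of any tested member, 28.2%, and it was named after its values were seen. It had 11.1 and 9.35 CPM in SWT libraries against 8.18 and 15.3 CPM in control libraries. Its log2 fold change was -0.18 ± 0.21, and it ran from -0.58 without control replicate 1 (edgeR adjusted p 0.0488, in a fit that called 0.978% of all genes) to 0.32 without control replicate 2. Among the other tested small HSPs, HSPB8 was also highest in control replicate 2, while HSPB1 and HSPB6 were highest in control replicate 1. HSPB3 and HSPB11 were highest in SWT replicate 2. HSPB6 (HSP20) had 16.86 and 18.87 CPM in SWT libraries against 20.49 and 16.87 CPM in control libraries. HSPB3, a small HSP of muscle, had 2.48 and 3.09 CPM in SWT libraries against 2.07 and 3.03 CPM in control libraries. DNAJA4, a J-protein, had 2 and 0 counts in SWT libraries and 0 and 10 in control libraries. CRYAB, a muscle and lens small HSP outside the symbol rule, had 2.38 and 0.257 CPM in SWT libraries and 0 and 7.98 CPM in control libraries. Heart muscle genes, 25 in all, summed to 45.2 and 13.2 CPM in SWT libraries and 10.2 and 394.6 CPM in control libraries, and 3 of the 25 were below 1 CPM in every library. MYH6 had 96.2 and TNNT2 17.3 CPM in control replicate 2, while both were at 0 in control replicate 1. In SWT replicate 1 they had 2.68 and 1.49 CPM. MYH7, MYL2 and MYL3 were highest in SWT replicate 1 and the other listed genes in control replicate 2. MYH7 had 5.45 and 0.0858 CPM in SWT libraries against 0.258 and 3.54 CPM in control libraries. MYL2 had 2.28 and 0.686 CPM in SWT libraries against 0.344 and 1.31 CPM in control libraries. The part of these transcripts in the values of HSPB7 was not tested.

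**Figure D5:**
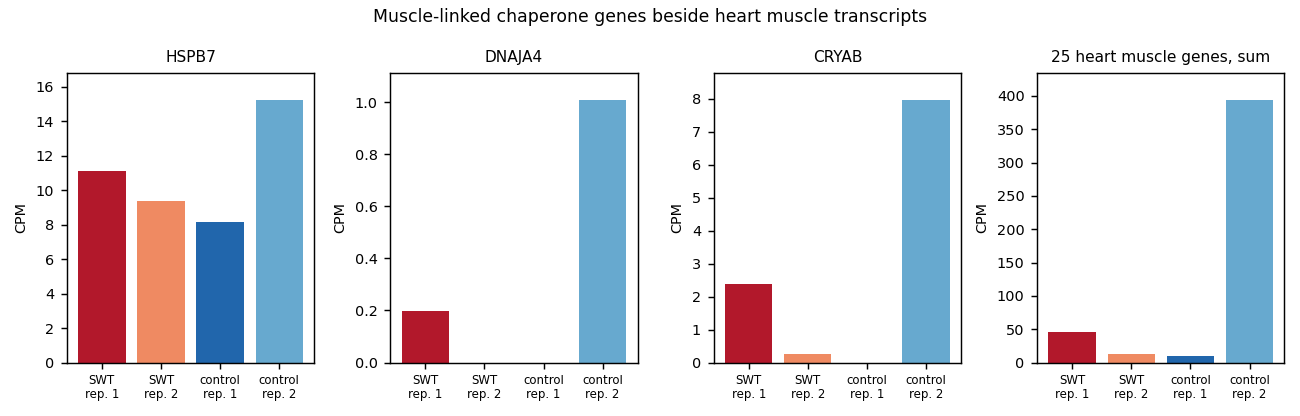
CPM per library of HSPB7, DNAJA4, CRYAB and the sum of 25 heart muscle genes; bars are single libraries, SWT replicates 1 and 2 at the left and control replicates 1 and 2 at the right, each panel with its own axis from 0. Control replicate 2 is the highest bar in every panel, at 15.3 CPM for HSPB7 and 394.6 CPM for the heart sum. HSPB7, DNAJA4 and CRYAB were picked after their values were seen, and the small HSPs HSPB3 and HSPB6, not shown, were not highest in that library.

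The 7 members that had counts but could not be tested were HSPA1B, HSPA7, HSPA12B, HSPB2, DNAJA4, DNAJB13 and DNAJC15. Several of the members at 0 are known from testis (DNAJB7, DNAJB8, HSPB9), where 8 of 8 germ cell markers were also listed at 0 here. A gene at 0 could still reach 3 counts by counting error alone, or 0.257 to 0.303 CPM. Of the 85 members, 20 share at least 20% of their 50-base words with another gene, 13 of them tested, and their split between copies depends on the counting. Likewise 24 members, 19 of them tested, have at least 5% of exon bases under exons of the other strand.

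Genes of the same pathways outside the symbol rule gave no call either, and all their counts stand against the 0% called over all genes in each direction. The heat shock factors had 4 tested genes, 3 above 0 and 1 below. HSF1, the master regulator, had 81.2 and 84.3 CPM in SWT libraries against 79.7 and 78.9 CPM in control libraries, and HSF2 had 36.5 and 35.1 CPM in SWT libraries against 31.1 and 32.9 CPM in control libraries (log2 fold change 0.16, edgeR adjusted p 0.853). Of 14 further HSF1 targets, 4 lay above 0 and 10 below, with a median of -0.02. STIP1, AHSA1, FKBP4 and CHORDC1 were in this list and also among the co-chaperones that follow, so these splits share genes. Of 19 HSP90 and HSP70 co-chaperones, 8 lay above and 11 below (median -0.01), the lowest p being that of SGTA, with 104.5 and 108 CPM in SWT libraries against 116 and 115 CPM in control libraries (log2 fold change -0.12, edgeR adjusted p 0.843). STIP1, which bridges HSP70 and HSP90, had 460.2 and 455 CPM in SWT libraries against 452 and 482 CPM in control libraries. The 11 mitochondrial chaperones and proteases split 3 above and 8 below (median -0.03), and the 23 ER chaperones and unfolded protein response genes 10 above and 13 below (median -0.01). DDIT3, the stress factor CHOP, had 13.5 and 12.2 CPM in SWT libraries against 11.6 and 14.4 CPM in control libraries. The 13 tested prefoldin and tubulin-folding cofactors, which work with the chaperonin, split 4 above and 9 below (median -0.03). PFDN6, also in that list, was listed at 0 in all libraries and was not tested. TBCA had 90.9 and 94.9 CPM in SWT libraries against 98.2 and 106 CPM in control libraries (log2 fold change -0.13, edgeR adjusted p 0.843).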

How the data were processed

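The authors deposited raw counts per gene symbol and a second table of log2 values, which track the log2 counts; the first was used throughout and the second for 1 alternative, as it stands, although a log2(value + 1) transform had been planned. The submitters' processing notes name, with no role, STAR 2.5.3a, HTSeq, Trimmomatic 0.36, FastQC 0.11.5, DESeq2 and the build hg38. The annotation and the strand setting used for counting are not given in the sources used here. Libraries were made with a stranded poly(A) kit, per the labels' protocols. Sample labels gave groups and replicate numbers.

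The whole table was tested with edgeR 4.0.16 in R 4.3.3 (TMM factors 0.997 to 1.004, filterByExpr with the group, quasi-likelihood F-test, Benjamini-Hochberg over 12399 genes, threshold 0.05), and only member rows are given. The biological coefficient of variation was 4.32%. Standard errors divide the size of the log2 fold change by the root of F, and 95% intervals use a t quantile, so both are approximate. CPM use TMM-scaled library sizes. The fit was tested on simulated data. Lengths, gene positions and shared 50-base words come from GENCODE 29 transcripts, promoter windows from RefSeq.

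The members and gene lists were chosen with earlier results of these data known. Named are the stress, ER and mitochondrial chaperones, the chaperonin subunits, the 6 members with the smallest p in each direction and the most abundant of each family. Values from the pathway lists and those of HSPB7, DNAJA4, HSPB3, HSPB6 and HSPB11 were picked after they were seen. The alternatives were RLE scaling, upper-quartile scaling, a minimum mean count of 50, no filter at all, a replicate block, each library left out, DESeq2 1.42.0, limma-voom and limma 3.58.1 on the deposited log2 values; a crossed pairing and the principal transcript length were added after the data were seen.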

Additional observations from a re-analysis of the deposited data

How the results depend on the processing

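Across the alternatives, 0 members were called in either direction under RLE and upper-quartile scaling, both filters, both blocks, DESeq2, limma-voom and limma on the deposited log2 values. Leaving out 1 library gave 0 to 1 members higher and 0 to 1 lower: DNAJC2 without control replicate 2 and HSPB7 without control replicate 1. The member median ran from -0.00965 to 0.0596 when 1 library was left out, the lower end without control replicate 1. Over all genes, no filter gave 20 calls higher and 43 lower, and leaving out 1 library 2 to 106 higher and 15 to 97 lower; the causes were not tested. Same-numbered libraries deviated against each other (correlation -0.264 across genes). With 2 libraries a group, 1 outlying library can set this value, so it cannot decide whether the numbers pair the samples. The replicate block gave 1 gene lower and 0 higher, and a crossed pairing 55 higher and 42 lower. The fold change of HSPA6 changed sign under the replicate block (0.0204) and DESeq2 (0.0140). With 1 library left out, the range of the fold change crossed 0 in 34 of 69 tested members. Of the 37 tested members named by the rule or as HSPB7, 15 were among them: HSPA6 (-0.33 to 0.29), HSPA8 (-0.00965 to 0.0834), HSP90AA1 (-0.00493 to 0.122), HSP90AB1 (-0.0314 to 0.0665), DNAJA1 (-0.0196 to 0.116), DNAJB1 (-0.0183 to 0.00532), HSPB1 (-0.14 to 0.10), BAG3 (-0.0968 to 0.00499), DNAJB9 (-0.23 to 0.13), DNAJB11 (-0.0475 to 0.0371), HSPA9 (-0.0738 to 0.1), HSPD1 (-0.0241 to 0.0866), HSPE1 (-0.0912 to 0.137), TCP1 (-0.00016 to 0.117) and HSPB7 (-0.58 to 0.32). With 1 library left out the lone sample is assumed to vary like the other group. With 2 libraries a group, the depth limits HSPA6, HSPA2, HSPB3 and DNAJC27 most.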
